A study of Homo sapiens with 16 samples.

Results

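Regions of TOP2A-bound DNA from K562 cells treated with etoposide were compared with those from cells treated with p-benzoquinone. K562 is a human chronic myeloid leukaemia line with erythroid features that carries the BCR-ABL1 fusion. TOP2A was captured with an antibody from sonicated lysates and its DNA was sequenced, and the authors deposited 1 pooled list of regions per treatment. Etoposide was given at 25 µM for 1 h (3 libraries amplified before library preparation) and p-benzoquinone at 8 µM for 4 h (2 such libraries). In 1 more p-benzoquinone library the title and source say unamplified and the description amplified, it was grouped as unamplified, and its labels name no list. Dose and time therefore differed between the poisons, and their parts in any difference cannot be told apart from that of the compound. Vehicle was 0.05% DMSO, also present with the poisons (3 such libraries, whose exposure times are not given per library). The lists of 2 more poisons were used beside these: genistein at 50 µM for 1 h (2 such libraries) and mitoxantrone at 2 µM for 1 h (1 such library). The members were all regions on chromosomes 1-22 of both lists: 173814 for etoposide and 347383 for p-benzoquinone, together 521197 of 1481258 entries in the 5 lists of the series. A region counted as shared where it overlapped a region of the other list by at least 1 bp. The lists carry no value per library, so there is no replicate spread and no p-value, and the depth is unknown. Brackets give exact (Clopper-Pearson) 95% intervals, which cover counting error only. For log2 ratios of cover the bracket is the interval of the ratio of region numbers, moved onto the cover ratio. The lists hold no expression values, so the cell line was taken from the labels.

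DNA topoisomerase II alpha (TOP2A) passes one duplex through a transient break in another and is most abundant in dividing cells. During the break each subunit is joined to a DNA end through a tyrosine. Etoposide, an anticancer drug of the podophyllotoxin family, is an interfacial poison: it sits without a covalent bond between enzyme and cut DNA and blocks resealing. p-Benzoquinone is a metabolite of benzene, a leukaemogen, and is a covalent poison that reacts with thiols of the enzyme. It is also a general electrophile that reacts with other proteins and with glutathione. Both agents are linked to leukaemias with chromosome translocations.

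Regions of both poisons lay together in 46 promoters. There were 15100 protein-coding promoters in the RefSeq table of GRCh38.p14 (250 bases before to 50 after the start). Of these, 344 held an etoposide region (2.28%), 1047 a p-benzoquinone region (6.93%) and 46 both (0.305%). The 46 were a larger share of the 344 than the 6.93% over all promoters. In 36 of the 46 a pair of overlapping regions reached the promoter. The sequences below, from RefSeq, are 3 of the 4 with the highest lower value, shown 5′ to 3′ on the gene's strand to let the bases covered in both lists be seen. Capitals mark those bases.
ITGA2B: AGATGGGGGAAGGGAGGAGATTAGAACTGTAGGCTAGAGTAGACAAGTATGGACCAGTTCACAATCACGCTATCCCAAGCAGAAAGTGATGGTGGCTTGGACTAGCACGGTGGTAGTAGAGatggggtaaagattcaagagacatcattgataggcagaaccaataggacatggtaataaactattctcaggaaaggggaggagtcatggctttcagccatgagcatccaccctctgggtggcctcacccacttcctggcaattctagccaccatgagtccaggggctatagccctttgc
CBY2: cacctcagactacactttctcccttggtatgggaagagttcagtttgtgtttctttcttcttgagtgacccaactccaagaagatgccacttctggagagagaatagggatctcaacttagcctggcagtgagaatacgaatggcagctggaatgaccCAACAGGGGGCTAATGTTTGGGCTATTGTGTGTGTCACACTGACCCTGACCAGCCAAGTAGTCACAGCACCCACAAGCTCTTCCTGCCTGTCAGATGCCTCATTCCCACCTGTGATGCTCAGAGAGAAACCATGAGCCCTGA
GINS1: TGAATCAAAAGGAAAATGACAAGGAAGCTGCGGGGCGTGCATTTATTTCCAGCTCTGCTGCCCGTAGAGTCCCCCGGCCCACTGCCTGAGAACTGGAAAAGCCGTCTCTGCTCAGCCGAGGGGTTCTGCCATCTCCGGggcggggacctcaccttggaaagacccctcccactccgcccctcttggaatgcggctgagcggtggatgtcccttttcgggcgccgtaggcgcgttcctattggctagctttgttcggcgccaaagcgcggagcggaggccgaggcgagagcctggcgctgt

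ITGA2B encodes the platelet integrin alpha-IIb, a megakaryocyte gene. Its promoter (chr17:44389600-44389899, minus strand) had 121 bases in both lists, with values of 52.64 for etoposide and 28.94 for p-benzoquinone, and the region also overlapped a vehicle region. The CBY2 promoter (chr13:45702070-45702369, plus strand) had 142 bases in both lists, with values of 11.18 and 14. It overlapped no vehicle region but a genistein region. GINS1 encodes a subunit of the GINS complex of the replicative helicase. Its promoter (chr20:25407423-25407722, plus strand) had 138 bases in both lists, with values of 12.55 and 8.7, and overlapped no region of the other 3 lists. The capitals lie upstream of the start in ITGA2B and GINS1 and run to the end of the window in CBY2. The fourth, ZFHX3 on chromosome 16, had only 8 bases in both lists. GC content was 49.7%, 50% and 62.3% in the 3 shown, against a median of 63% over all promoters.

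The p-benzoquinone list was the larger and held lower values. It covered 59.7 Mb, 2.28% of the 2616 Mb of callable genome (all bins of 100 kb that at least 1 of the 5 lists touched). Etoposide regions covered 29.1 Mb, or 1.11%, and the 296907 vehicle regions 1.88%. Median width was 158 bp for etoposide and 150 bp for p-benzoquinone. The median of the authors' value per region, a score with no stated unit, was 7.79 for etoposide and 5 for p-benzoquinone. At a value of at least 4, 140657 etoposide and 215983 p-benzoquinone regions were left. The values next to that threshold were 4.05 and 3.95 for etoposide, and 4.08 and 3.87 for p-benzoquinone.

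The values of the lists were not built alike. Values below 10 are mostly whole multiples of fixed steps, of which some are coarse (about 0.34) and others fine (about 0.23 to 0.25). Of those values 91.1% lay on a step found in the etoposide list and 93.2% in the p-benzoquinone list, against 21.4% and 16.5% for evenly spread values. Of etoposide regions with a single value from 4 to 10, 85.6% lay on a coarse step, against 0.64% of p-benzoquinone regions. Vehicle values held both kinds. All values below 3.7 were counted as fine. With these, etoposide values on fine steps only belonged to 31771 regions (18.3% of its list). Etoposide values on the coarse step only belonged to 53158 (30.6%). The rest of its list, including regions with no value below 10, was in neither part. By the same rule 276087 p-benzoquinone regions (79.5%) lay on fine steps. The labels do not say which library gave which step. The main comparisons are given for the whole lists and again within fine steps, the kind that both lists hold. The median value of fine regions was 2.51 for etoposide and 4.1 for p-benzoquinone, so these parts are not matched by value.

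The poisons shared a small part of their regions. In the whole lists the fold of shared bases over genome share was lower between them than between either and vehicle. Of etoposide regions, 15190 overlapped a p-benzoquinone region (8.74%, 8.61% to 8.87%). Of p-benzoquinone regions, 15200 overlapped an etoposide region (4.38%, 4.31% to 4.44%). A vehicle region was overlapped by 8.46% (8.33% to 8.59%) of etoposide regions and by 7.94% of p-benzoquinone regions. p-Benzoquinone regions held 5.19% of etoposide bases against 2.28% of the callable genome, a fold of 2.28. With vehicle the same fold was 2.78 for etoposide and 2.45 for p-benzoquinone. Etoposide shared bases with the genistein list at a fold of 2.39 and with mitoxantrone at 2.46. p-Benzoquinone shared them at 1.73 and 1.75. These folds share lists with each other and are a description.

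Within fine steps the fold of shared bases was higher, at 3.99. There 10.1% (9.82% to 10.5%) of etoposide regions overlapped a p-benzoquinone region. Of p-benzoquinone regions 1.17% (1.13% to 1.21%) overlapped an etoposide region, from lists of 276087 and 31771 regions. Between coarse etoposide regions and fine p-benzoquinone regions it was 1.94. The fold of fine etoposide with fine vehicle regions was 5.26, and that of fine p-benzoquinone with fine vehicle regions 3.21. The latter was below the 3.99 between the poisons, unlike in the whole lists. Coarse etoposide and coarse vehicle regions shared bases at a fold of 3.27. At values of at least 4 the fold between the poisons was 1.92. Below 3.7, a range chosen after the values were seen in which 96.1% of etoposide and 98.1% of p-benzoquinone values lay on a fine step, it was 4.46.

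**Figure D1:**
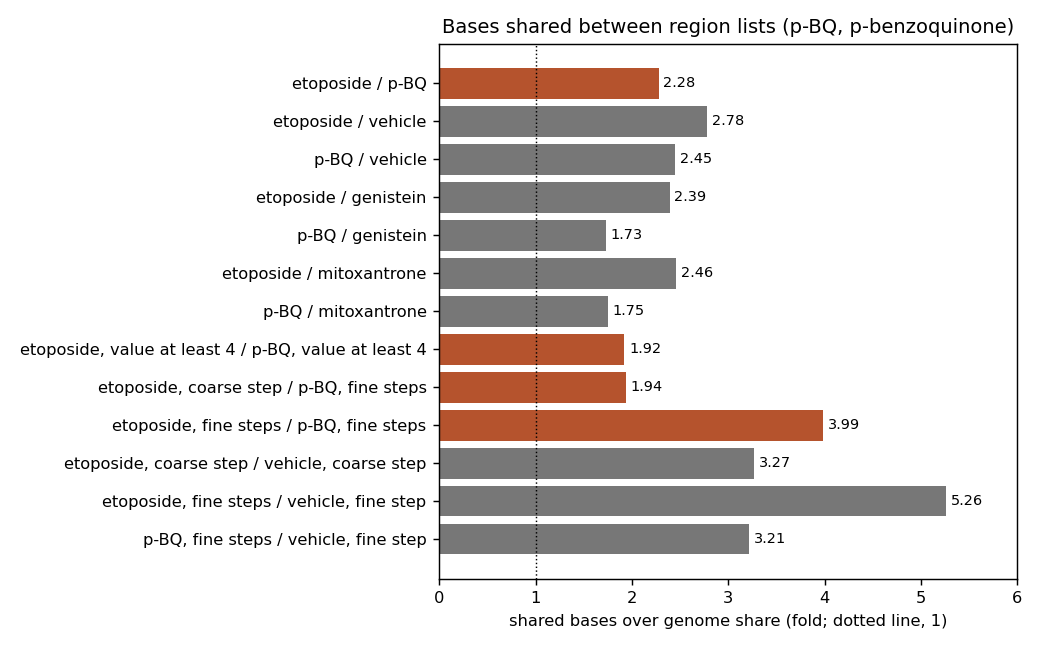
Bars give the fold of shared bases over genome share (horizontal axis) for pairs of region lists, with etoposide against p-benzoquinone in brown and other pairs in grey. The pair of interest stands at 2.28 for whole lists, 1.94 with coarse etoposide regions and 3.99 within fine steps.

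The values of overlapping regions showed almost no correlation across pairs. The 15259 overlapping pairs shared a median of 104 bp with centres 67 bp apart, and in 70.5% they shared at least 50% of the narrower region. Over pairs the log2 values had a Pearson correlation of 0.01 (n = 15259 pairs from 2 lists). Etoposide regions were shared most often at values from 2.5 to 3.7 (14.7%, 14.1% to 15.4%) and least often from 5 to 7.5 (6.95%, 6.7% to 7.22%). At 30 or more 10.6% (9.71% to 11.6%) were shared. p-Benzoquinone regions were shared in 4.16% from 3.7 to 5 and in 6.24% (5.08% to 7.57%) at 30 or more. Among the 100 highest etoposide regions 8 were shared, and among the 100 highest p-benzoquinone regions 6. Shared regions touched vehicle more often than the rest: 12.5% against 8.08% for etoposide, and 13.05% against 7.7% for p-benzoquinone. In 69.2% of pairs neither region touched any of the other 3 lists.

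Shared etoposide regions were centred within 1 kb of a gene end in 3.12% (2.85% to 3.41%), against 2.38% (2.3% to 2.45%) of etoposide regions in only 1 list. For p-benzoquinone the shares were 3.14% (2.87% to 3.43%) and 3.15% (3.09% to 3.21%). Shared regions of both lists are largely the same sites, so their like shares at gene ends follow from the overlap itself. The share of etoposide regions in only 1 list lay below both p-benzoquinone intervals.

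At the 5 strongest shared sites both values were above 30. The first was at chr22:38035167-38035328, inside POLR2F, a subunit of RNA polymerases, with values of 43.16 for etoposide and 45.66 for p-benzoquinone. The next, chr7:157471055-157471307, lay in no protein-coding gene, had 45.49 and 40.82, and also overlapped vehicle and mitoxantrone regions. At chr16:13613852-13614043, in no gene, the values were 47.9 and 31.89. At chr2:178022137-178022325, inside PDE11A, a phosphodiesterase gene, they were 30.86 and 36.97. The fifth, chr5:56023582-56023729, lay in no gene and had 32.96 and 30.65, with a mitoxantrone region over it. Of these 5, 1 overlapped a vehicle region.

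p-Benzoquinone regions reached GC-rich promoters more often than etoposide regions did, within fine steps too. GC-rich promoters mostly lie in CpG islands, the unmethylated promoter class of broadly expressed genes. Promoters were ranked by GC content in 5 equal groups, and the 2 highest held 5979 promoters with a GC content from 66%. Of these, 41 held an etoposide region and 201 a p-benzoquinone region. Scaled to list size this came to 23.6 (16.9 to 32.0) hit promoters per 100000 etoposide regions and 57.9 (50.1 to 66.4) per 100000 p-benzoquinone regions. The log2 ratio was 1.29 (0.80 to 1.82). Within fine steps it was 1.58 (0.43 to 3.05), from 6 and 156 promoters. In the 2 groups of lowest GC the ratio was 0.40 (0.18 to 0.63) for whole lists and -0.24 (-0.63 to 0.17) within fine steps. The split into lowest and highest groups was chosen after the values were seen.

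The other lists stood with etoposide at these promoters. Per 100000 regions, GC-rich promoters hit numbered 28.0 (22.3 to 34.7) for vehicle, 22.5 (18.1 to 27.7) for genistein and 22.8 (16.6 to 30.6) for mitoxantrone. All 4 intervals ended below that of p-benzoquinone. Both fine steps of p-benzoquinone were high, with 59.0 (48.6 to 70.9) and 45.3 (29.6 to 66.3), and so were its regions below 3.7, with 47.4 (35.8 to 61.5). Etoposide had 10.1 (1.23 to 36.6) and 23.7 (2.87 to 85.4) on its fine steps, from 2 promoters each. Below 3.7 it had 22.1 (8.11 to 48.1), from 6 promoters. Each of these etoposide intervals overlaps at least 1 of those of p-benzoquinone. Coarse vehicle regions had 41.1 (27.6 to 59.1), an interval that overlaps those of p-benzoquinone. Fine vehicle regions had 26.6 (18.0 to 38.0). The 4 h exposure was used for p-benzoquinone and no other poison, so compound and time cannot be told apart here.

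**Figure D2:**
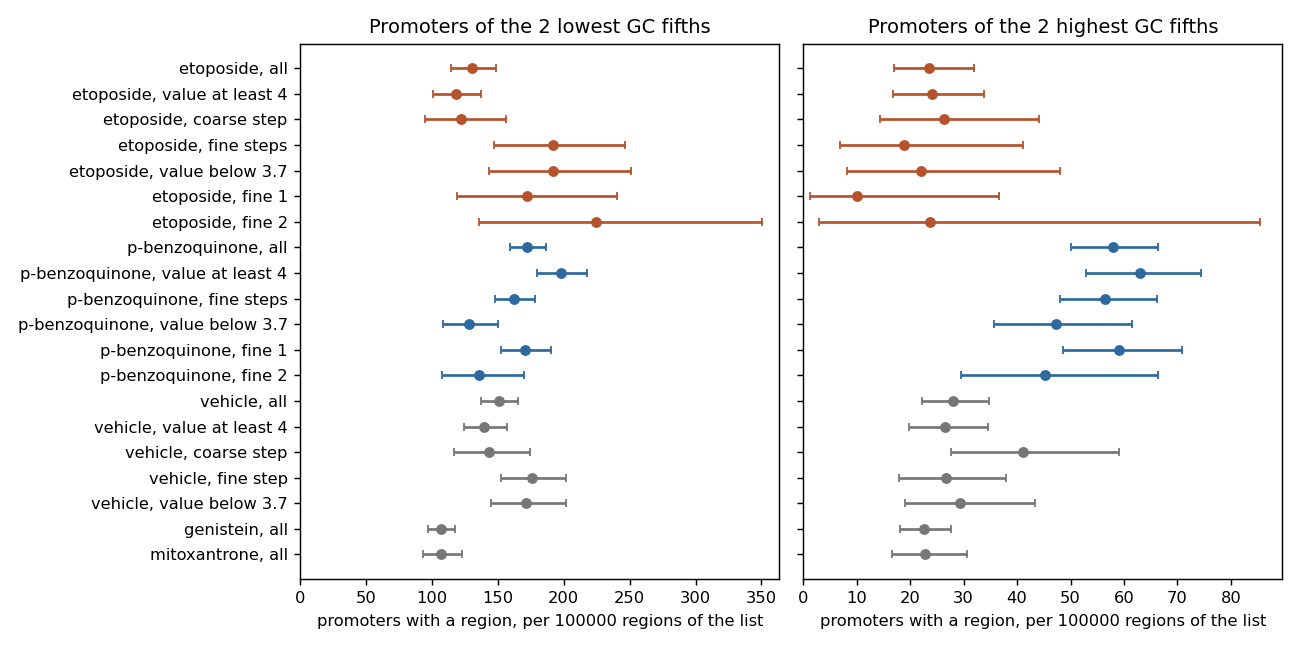
Points give promoters with a region per 100000 regions of the list (horizontal axis), with exact 95% intervals, for promoters of the 2 lowest (left) and 2 highest (right) GC groups, by list and value part. On the right the p-benzoquinone points lie between 45.3 and 63.0, and the etoposide points between 10.1 and 26.3.

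The etoposide, p-benzoquinone and vehicle lists all thinned out at the highest GC. In the top group of promoters (GC from 72.3%) 0.269% held an etoposide region, 1.58% a p-benzoquinone region and 0.404% a vehicle region. In the lowest group the shares were 4.02%, 8.34% and 6.91%. Promoters with an etoposide region had a median GC of 56.3% and those with a p-benzoquinone region 58%. The letters GGGCGG (either strand), the core of an SP1 site, stood in 58.9% of all promoters, in 38.4% of those with an etoposide region and in 43.6% of those with a p-benzoquinone region. The letters CCAAT were in 36.0%, 40.4% and 39.6%, and TATAAA in 9.71%, 9.88% and 10.0%. The letters TGACNNNGC, the antioxidant response element through which NRF2 acts, were in 14.2% of all promoters, 14.8% with etoposide and 11.8% with p-benzoquinone regions. A match describes letters and not a bound site, and the GC content of the promoter classes differed.

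Gene ends had more p-benzoquinone cover in the whole lists, and within fine steps a log2 ratio of 0.00. Within 1 kb of protein-coding gene ends cover was 0.957 times the genome mean for etoposide and 1.29 for p-benzoquinone, a log2 ratio of 0.43 (0.37 to 0.48). Vehicle had 1.04. Within fine steps the values were 1.25 for both poisons and the log2 ratio was 0.00 (-0.09 to 0.10). Coarse etoposide regions had 0.965, coarse vehicle regions 0.970 and fine vehicle regions 1.17. Coarse and fine regions thus differed at gene ends in both the etoposide and the vehicle list. What the steps stand for, such as a library or its depth, was not tested.

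Along the genome the whole-list ratio of p-benzoquinone to etoposide cover was higher in gene-dense windows than in windows without a gene, and the fine-step ratio was lower there. In 1 Mb windows without a gene etoposide cover was 0.994 times the mean and p-benzoquinone cover 0.672. In windows of 21 genes or more they were 0.870 and 1.25. Within fine steps etoposide cover rose from 0.647 to 1.21 and p-benzoquinone cover from 0.723 to 1.17. There the log2 ratio of region numbers, scaled to list size, ran from 0.21 (0.15 to 0.27) to -0.09 (-0.15 to -0.03). Coarse etoposide regions ran the other way, from 1.13 to 0.811, and coarse vehicle regions from 1.02 to 0.884. Over 2638 windows, which share copy number and mappability, etoposide and p-benzoquinone cover correlated at r = 0.31, and at 0.72 within fine steps. The coarse and fine cover of etoposide itself correlated at -0.04.

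Within 2 kb of start sites p-benzoquinone cover was above the genome mean on both sides. From 0 to 500 bp after the start it was 1.14, with 0.657 for etoposide and 0.813 for vehicle. Within fine steps the values were 1.11, 0.852 and 1.01. From 500 to 1000 bp after it fine cover was 1.36 for p-benzoquinone and 1.40 for etoposide. The etoposide, p-benzoquinone and vehicle lists all had lower cover in the first 500 bp after the start than in the next.

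**Figure D3:**
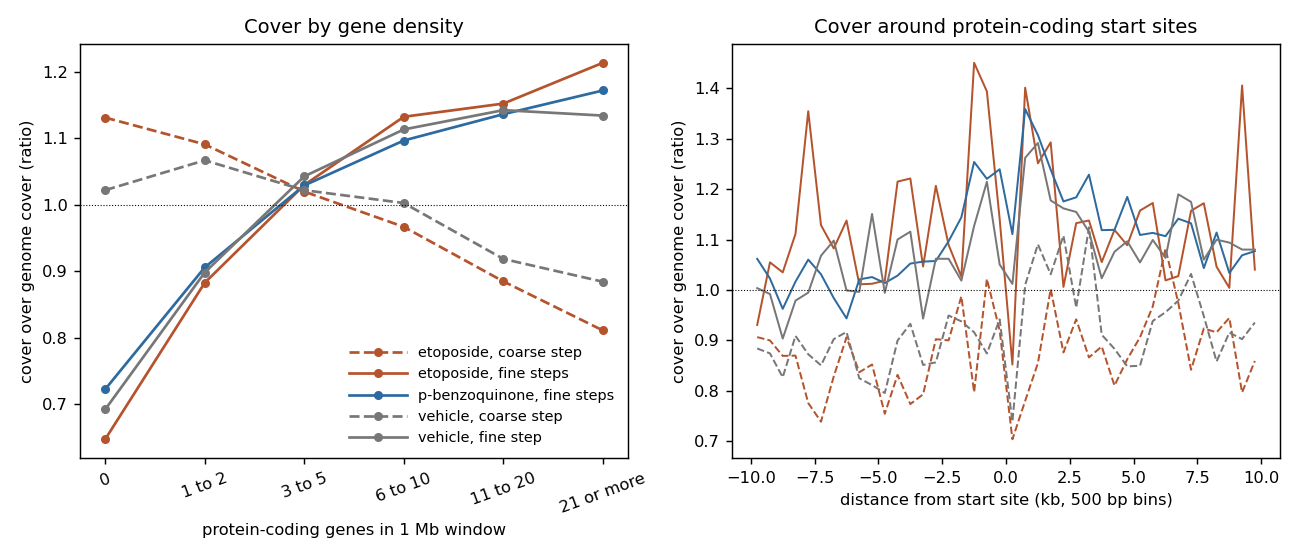
Cover over genome cover (vertical axes) by number of protein-coding genes in 1 Mb windows (left) and by distance from start sites in kb (right), for etoposide (brown), p-benzoquinone (blue) and vehicle (grey), with fine steps as solid and coarse steps as dashed lines. On the left, solid lines climb from 0.647 to 0.723 up to 1.13 to 1.21 and dashed lines fall to 0.811 and 0.884.

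Chromosome 19, the most gene-dense, had cover of 0.789 for etoposide and 1.09 for p-benzoquinone, a log2 ratio of 0.46 (0.40 to 0.52). Chromosome 13, the least gene-dense, had 0.964 and 0.624, a log2 ratio of -0.63. Within fine steps these chromosomes had log2 ratios of -0.01 (-0.13 to 0.10) and -0.02. Over the 22 chromosomes the whole-list ratio ran from -0.63 to 0.46 with an SD of 0.26, and the fine-step ratio from -0.12 to 0.06 with an SD of 0.05. The ratio of fine to coarse vehicle cover had an SD of 0.25 over the same chromosomes.

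**Figure D4:**
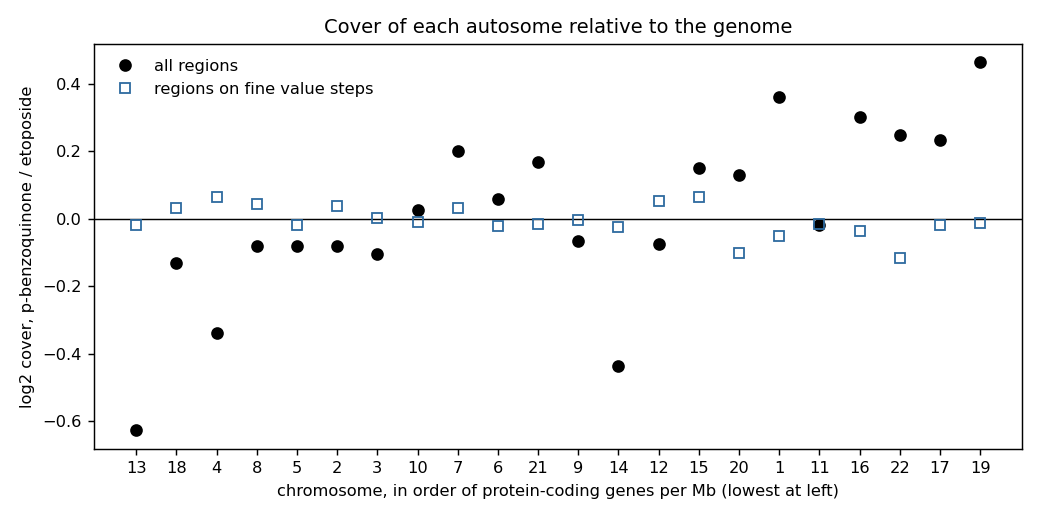
Log2 ratio of p-benzoquinone to etoposide cover (vertical axis) for each autosome in order of gene density, for all regions (black) and for regions on fine steps (blue squares). Black points run from -0.63 on chromosome 13 to 0.46 on chromosome 19, and blue squares stay between -0.12 and 0.06.

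Genes were compared by the number of regions in the body with 2 kb on each side, scaled to list size. Of 18158 callable protein-coding genes, 13196 had a region in both lists and 4782 a shared region. Among 6986 genes with at least 10 regions in both lists together, 1235 were at least 2-fold higher with p-benzoquinone (17.7%) and 360 at least 2-fold higher with etoposide (5.15%), together 22.8%. The median log2 ratio was 0.17. Within fine steps, of 4503 genes 342 were at least 2-fold higher with p-benzoquinone (7.59%) and 535 with etoposide (11.9%), together 19.5%, with a median log2 ratio of -0.03. The median gene had 2 etoposide regions there. No etoposide region on fine steps was present in 661 genes, and 640 of the 4503 were left without a ratio for that reason. Genes high with p-benzoquinone could thus go uncalled, so the turn in direction cannot be read as a result about the genes. In the whole lists most of the genes past 2-fold held few regions: among 381 genes with at least 100 regions, 4 were past 2-fold with p-benzoquinone and 7 with etoposide. Intervals left out 0 for 506 of the 6986 genes (7.24%) and 102 of the 381 (26.8%).

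The 8 highest ratios were at genes with 1 etoposide region each. AGAP3 had 1 etoposide and 23 p-benzoquinone regions (log2 3.52, 0.90 to 8.89), and RET, a receptor tyrosine kinase, 1 and 21. ADGRB1, ASS1 (a urea cycle enzyme), UVSSA (transcription-coupled repair), DRD2 (a dopamine receptor), EPHX1 and PKIG had 1 against 18 to 20. EPHX1 is microsomal epoxide hydrolase, which acts on benzene oxide. These genes had 0 or 1 etoposide regions on fine steps too, against 13 to 17 for p-benzoquinone. With 1 fine etoposide region each, the fine-step log2 ratio was 0.88 (-1.81 to 6.27) in ASS1, 0.97 (-1.71 to 6.35) in UVSSA and 0.58 (-2.15 to 5.99) in EPHX1. These intervals are wide and hold 0. The other genes had no fine etoposide region, and their fine-step ratio was left out. The lowest ratio was at GKAP1, with 10 etoposide regions and 1 p-benzoquinone region (log2 -4.32, -9.76 to -1.51). HTR1F, a serotonin receptor, had 13 and 5, and KIF11, the mitotic kinesin, 10 and 4. GCNT1, NME9 and PAX3 had the same numbers as KIF11, FAM151B had 8 and 3, and AQP9, a water and glycerol channel, 7 and 3.

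The most shared regions were in long genes. RBFOX1, a neuronal splicing factor of 2474 kb, had 218 etoposide and 450 p-benzoquinone regions, 26 shared, with a log2 ratio of 0.05 (-0.19 to 0.29). CAMTA1, a transcription activator, had 90 and 252 with 17 shared, and LRMDA 96 and 231 with 15. The ion channel gene ASIC2 had 95 and 265 with 14 shared, PTPRN2 62 and 168 with 14, and CNTNAP2, of the neurexin family, 138 and 285 with 13. The ratio was 0.49 (0.13 to 0.85) in CAMTA1 and 0.48 (0.14 to 0.83) in ASIC2. On fine steps CAMTA1 had 33 and 180 regions (log2 -0.67) and ASIC2 24 and 192 (-0.12), so neither was higher with p-benzoquinone there. By gene length the summed ratio fell from 0.49 (0.39 to 0.59) for genes under 5 kb to -0.13 (-0.16 to -0.11) for those of 500 kb or more. Within fine steps it was -0.04 (-0.21 to 0.15) and 0.04 (-0.02 to 0.09).

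**Figure D5:**
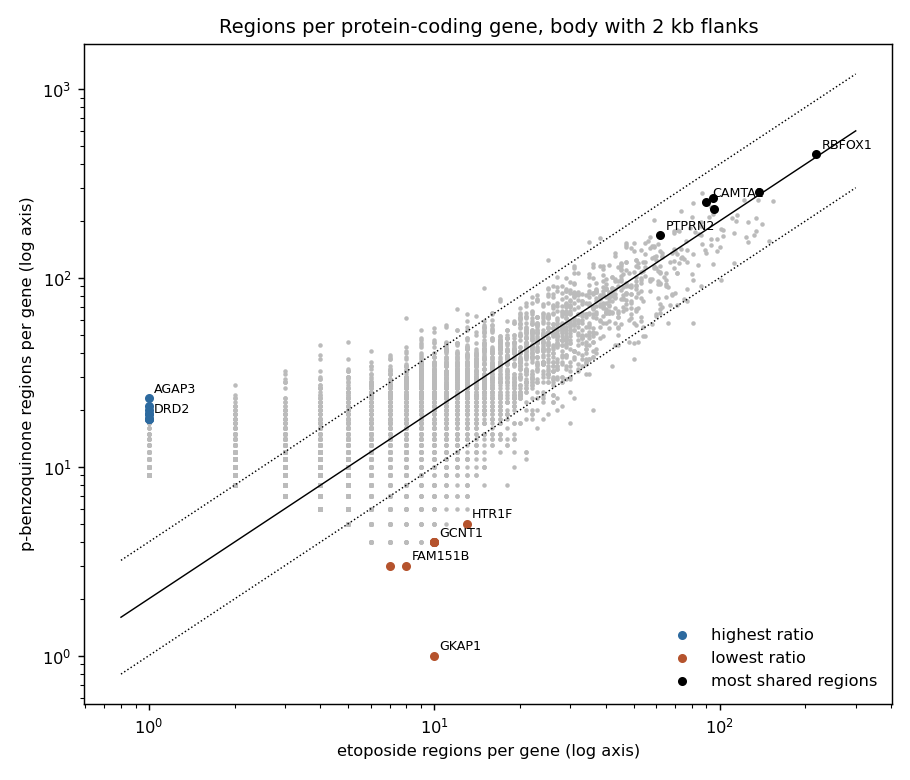
Each point is a protein-coding gene with at least 10 regions and at least 1 in each list, by etoposide (horizontal, log axis) and p-benzoquinone regions (vertical, log axis). The solid line marks equal numbers scaled to list size and dotted lines 2-fold, and most genes past 2-fold lie at the left, with few regions.

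Among leukaemia translocation genes the counts past 2-fold stood near those over all genes. The 39 callable genes of the list held 412 etoposide and 968 p-benzoquinone regions (log2 0.23, 0.07 to 0.40), and within fine steps 77 and 741 (0.15, -0.19 to 0.51). Of 35 with at least 10 regions, 6 were past 2-fold with p-benzoquinone and 3 with etoposide, or 17.1% and 8.57% beside 17.7% and 5.15%, with a median log2 ratio of 0.33 beside 0.17. Shared regions were present in 21 genes. RUNX1, the core binding factor gene, had 13 etoposide and 55 p-benzoquinone regions (log2 1.08, 0.19 to 2.08), 2 of them shared. On fine steps it had none for etoposide and 43 for p-benzoquinone. Against a floor of 3 etoposide regions the log2 ratio was 0.72, and the exact interval for a count of 0 began at 0.36. ETV6, its fusion partner, had 15 and 53 (log2 0.82, -0.03 to 1.76), with 1 and 46 on fine steps.

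Other genes of this list with a shared region were spread to both sides. ALK had 57 and 143 regions with 5 shared, and MECOM 40 and 87 with 5. AFDN had 12 and 31 with 3 shared, SEPTIN9 20 and 43 with 3, and KAT6A 9 and 23 with 3. CBFA2T3 had 9 and 31, CREBBP 8 and 29, AFF1 11 and 29, MLLT10 12 and 24, RARA 3 and 14, PDGFRB 5 and 16, and BCR 6 and 13. NPM1 had 1 and 4. Higher etoposide shares were at PDGFRA, with 12 and 10 (3 shared, log2 -1.26, -2.63 to 0.07), at JAK2, with 10 and 9, and at NSD1 and PICALM, with 16 and 22 and with 10 and 14. Apart from RUNX1 the intervals of the ratios named here hold 0. Over all 6986 genes measured, intervals left out 0 for 506 (7.24%).

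KMT2A, the gene of 11q23 leukaemias, held the strongest p-benzoquinone regions. It had 6 etoposide regions, with values from 4.4 to 10.86, and 19 p-benzoquinone regions with 2 shared. Of the latter, 1 region of 8288 bp (chr11:118505952-118514239) had a value of 1817, another of 2196 bp (chr11:118483579-118485774) had 221, and 1 more of 1002 bp had 127. Outside KMT2A the widest p-benzoquinone region was 1358 bp and the highest value 135. The 8288 bp region overlapped vehicle, genistein and mitoxantrone regions but no etoposide region. The vehicle regions inside it had values of 4.39 to 5.07. Elsewhere in the gene a vehicle region at chr11:118488606-118488792 had a value of 41.94, above all etoposide values there. It overlapped a p-benzoquinone region with a value of 18.2. Which library gave these values is not recorded in the list, so their spread is unknown.

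Of regions found with only 1 of both poisons, the highest for etoposide were at chr15:59239790-59239960 in MYO1E, a myosin gene (value 116), chr2:11042208-11042392 in no gene (107, also a vehicle region) and chr14:78477878-78478041 in NRXN3 (106). For p-benzoquinone, after the 2 regions of KMT2A, came chr1:46817397-46817562 in CYP4B1 (135).

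The remaining gene lists held few genes with 10 regions, and counts past 2-fold, given for the whole lists, stood beside 17.7% and 5.15% over all genes. Of 16 benzene metabolism genes, 15 were callable, with 22 etoposide and 73 p-benzoquinone regions (log2 0.73, 0.03 to 1.49), and 2 and 49 within fine steps (1.50, -0.43 to 4.58). EPHX1 gave 1 and 18 of these, EPHX2 6 and 10, and UGT1A6, a glucuronosyltransferase, 4 and 10. Of 4 measured, 1 was past 2-fold with p-benzoquinone. Quinone and oxidative stress genes had 66 and 159 regions (0.27, -0.15 to 0.71), on fine steps 14 and 126 (0.05, -0.75 to 0.96), and 2 of 7 were past 2-fold with p-benzoquinone. Among them TXNRD1, thioredoxin reductase, had 8 and 22, ME1 10 and 17, and BACH1, a repressor of NRF2 targets, 4 and 16 (log2 1.00, -0.63 to 3.04).

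Genes of cohesin and CTCF had proportionally more etoposide regions, with 91 against 122 (log2 -0.58, -0.98 to -0.17). Within fine steps they had 14 and 104 (-0.23, -1.04 to 0.69). Of 6 measured, 1 was past 2-fold with etoposide. STAG1 had 20 and 25, PDS5B 17 and 17, and PDS5A 17 and 15 (log2 -1.18, -2.28 to -0.09). Double-strand break repair genes had 157 and 283 (-0.15, -0.44 to 0.14) and on fine steps 26 and 223 (-0.02, -0.61 to 0.63), with 4 of 18 past 2-fold with p-benzoquinone and 2 with etoposide. XRCC4, a partner of DNA ligase IV in end joining, had 30 and 25 (log2 -1.26, -2.09 to -0.45), PRKDC 8 and 30, and RIF1 7 and 23.

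Topoisomerase and adduct removal genes had 65 and 143 (0.14, -0.29 to 0.58) and on fine steps 13 and 117 (0.05, -0.78 to 1.00), with 1 of 9 past 2-fold with p-benzoquinone. TOP1 had 10 and 12, RBBP8 7 and 16, and BRCA1 6 and 16. Long fragile-site genes had 2171 and 3998 (-0.12, -0.19 to -0.04). On fine steps they had 336 and 3218, where the sign turned and the interval holds 0 (0.14, -0.02 to 0.31). In the whole lists all 23 held a shared region, and 1 of 23 was past 2-fold with etoposide. DLG2 had 154 and 255. Erythroid and K562 genes had 77 and 194 (0.33, -0.05 to 0.73) and on fine steps 17 and 146 (-0.02, -0.75 to 0.80), with 1 of 7 past 2-fold with p-benzoquinone. ANK1 had 26 and 64 with 5 shared, BCL11A 13 and 28, and SLC25A37 6 and 17. B and T cell markers had 59 and 160 (0.44, 0.00 to 0.90) and on fine steps 15 and 127 (-0.04, -0.81 to 0.84), with 2 of 6 past 2-fold with p-benzoquinone. PAX5 had 11 and 45, CD247 6 and 20, and BLK 9 and 16. Hepatocyte markers had 53 and 95 (-0.16, -0.66 to 0.36) and on fine steps 9 and 79 (0.01, -0.98 to 1.20), with 0 of 3 past 2-fold. CPS1 had 10 and 26, TF 9 and 14, and APOB 6 and 8. Ribosomal protein genes had 29 and 75 (0.37, -0.26 to 1.04) and on fine steps 5 and 57 (0.39, -0.91 to 2.07), among them RPS24 with 3 and 7, RPL3 with 2 and 5 and RPL4 with 3 and 4. Replication-dependent histone genes had 12 and 33 (0.46, -0.53 to 1.55) and on fine steps 6 and 25 (-1.06, -2.38 to 0.52), and H2BC5 with 2 and 5, H3C3 with 2 and 2, and H4C2 with 0 and 3 held the most.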

How the data were processed

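Reads were handled with Bowtie2 2.1.0 and SAMtools 0.1.19 on hg38, per the submitters' processing notes. How regions were called is not given in the sources used here. For each treatment the authors deposited 1 union list of its amplified libraries. The score of a region, as deposited, has no stated unit, and where several values stood the highest was taken. Depth is unknown. Unamplified and input libraries were not used.

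Steps were sought in values below 10. A value within 0.0101 of a multiple of 1 kind of step was placed on it, and a region by any of its values, so regions keep their bounds. All values below 3.7 counted as fine, except where the first and second fine steps are given apart. Fold of shared bases is the share of one list's bases in the other over that list's share of the callable genome. Genes and promoters came from RefSeq tables of GRCh38.p14. Genes needed 50% callable bases. A count of 0 was set to 3, and a ratio was left out where that bound pointed to the list at 0. All 317 entries of 12 gene lists matched. Scripts (Python 3.11.15, numpy 2.4.6, pandas 2.3.3, scipy 1.17.1) were tested on simulated data.

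Named genes were, among genes with at least 10 regions, the 8 highest and 8 lowest ratios and the 6 with most shared regions; the 3 with most regions of each list; and translocation genes with a shared region. Named regions were the 5 strongest shared, 3 strongest of each list alone and 4 promoters. A gene that the rule names is not reported here. Members and lists were chosen with earlier results of these data known.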

Additional observations from a re-analysis of the deposited data

How the results depend on the processing

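Values are given as etoposide share shared, p-benzoquinone share shared, fold of shared bases, log2 ratio at gene ends and log2 ratio on chromosome 19, which were 8.74%, 4.38%, 2.28, 0.43 and 0.46 as reported. At values of at least 4 they were 4.94%, 3.21%, 1.92, 0.55 and 0.61. Within fine steps they were 10.1%, 1.17%, 3.99, 0.00104 and -0.0136, the last reversed in sign with an interval that holds 0. Below 3.7, a setting chosen after seeing the data, they were 4.36%, 1.00%, 4.46, -0.0751 and -0.16. Both log2 ratios were reversed there. The interval at gene ends held 0 (-0.18 to 0.03), and that on chromosome 19 left it out (-0.285 to -0.025). With single-value regions the first 3 were 8.29%, 4.18% and 2.18. With an overlap of at least 50% of both regions they were 3.95%, 1.98% and 1.40. Without regions that overlap vehicle, also chosen after seeing the data, they were 8.16%, 4.06% and 2.34. Adding chromosome X gave an etoposide share of 8.59%, and 5 kb at gene ends a log2 ratio of 0.36.

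Each etoposide step was also set against each p-benzoquinone step, after seeing the data. Coarse etoposide regions gave 3.54%, 0.982% and 1.82 with the first fine step of p-benzoquinone, and 1.31%, 1.22% and, at gene ends, 0.26 with the second. The first fine etoposide step gave 6.57%, 0.678%, 3.56, 0.0837 and -0.0054 with the first, and 2.84%, 0.977%, 5.43, -0.0539 and -0.0369 with the second. The second fine etoposide step gave 6.74%, 0.298%, 4.15, -0.11 and 0.11 with the first, and 3.09%, 0.454%, 6.02, -0.25 and 0.0823 with the second. The gene end ratio of -0.25 was reversed with an interval that leaves out 0 (-0.43 to -0.06).

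The list-size ratio of p-benzoquinone to etoposide was 2.00, and 8.69 within fine steps and 4.36 below 3.7. Genes past 2-fold numbered 1595, against 481 with at least 20 regions per gene, 539 below 3.7 and 877 within fine steps. On fine steps 342 were higher with p-benzoquinone and 535 with etoposide, but the median gene had 2 etoposide regions there and 640 of 4503 genes were left without a ratio. Those 640 lacked an etoposide region on fine steps, so genes high with p-benzoquinone could go uncalled. No paired analysis was possible because each treatment has 1 pooled list with no value per replicate, and no replicate could be left out for that reason. Regions on coarse steps cannot be compared between the poisons, since the p-benzoquinone values showed no coarse step.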
